A study of Oryza sativa Japonica Group and Oryza sativa Indica Group with 24 samples.

Results

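ACO1 and METK3 are rice genes for enzymes at the ends of the ethylene route, and their transcript signals were followed through 24 Affymetrix rice arrays. Every probe set (a group of short probes read out as 1 signal) was taken whose gene carries the symbol or synonym ACO1 or METK3 in the gene table. This gave 1 probe set for each gene, so the account covers 2 of the 17905 genes that had a probe set of their own. ACO1, also listed as EFE, is gene ID 4347225, and METK3 is gene ID 4325163. Both were selected on their measured values, the control and salt signals of all 24 arrays. Their own values are therefore given as a description, with standard errors and without p-values.

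Ethylene is a gaseous hormone made from methionine. A methionine adenosyltransferase, of which METK3 encodes a member, joins methionine to ATP and yields S-adenosylmethionine (SAM). SAM is also the methyl donor of the cell and the substrate of the polyamine and nicotianamine branches. ACC synthase turns SAM into ACC, and ACC oxidase, the enzyme that ACO1 encodes, turns ACC into ethylene. The methylthioadenosine left over is returned to methionine by the Yang cycle. In rice, ethylene is best known for the elongation of flooded shoots and for root growth, and salt is among the stresses that change its production.

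The arrays carried total RNA from crown and growing point, the base of the shoot that holds the meristem, at panicle initiation. The titles gave 4 sets of 6 arrays, with 3 salt-stressed and 3 unstressed (control) arrays in each, called biological replicates. They are m103 and agami, both japonica, of which the series text calls m103 sensitive and agami tolerant to salt, and a pair of sets that both carry the name ir29 and an indica label. The series text names ir29 as sensitive and a second indica, ir63731, as tolerant, but no title carries ir63731. This pair was told apart by title number (7 to 12 for the first, 19 to 24 for the second), and neither has a tolerance class here. Salt and control were read from the titles and the treatment field, since the description field calls every sample unstressed. The sources used here do not give the age of the plants, the salt level, its duration or the number of plants in a sample. Whether the replicates came from separately grown plants is also not given beyond the word biological, so the errors measure the spread between these samples.

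The deposited intensities of 9 arrays, 5 of them m103 and 4 from the first ir29-labelled set, were on a lower scale than the other 15, and every array was brought to a trimmed mean of 500. Values below are such scaled signals unless called log2. Replicate arrays correlated with a Pearson's r of 0.963 to 0.974. OSH1, which marks the shoot meristem, read 1111 to 7506 over the arrays, and MADS18, a factor of flowering, read 3080 to 4786. Among the other growing point markers, HOS59 read 1413 to 4910, FON1 889 to 1827 and OSH71 853 to 1508. FZP, at 1.35 to 73, and MADS34, at 1.3 to 43.5, were dim. MADS15 read 2.6 to 846, with a median of 53.4. The 3' over 5' ratio of actin control probes, which rises as RNA degrades, was 6.77 to 10.1 on the salt arrays of the second ir29-labelled set and 4.11 to 7.37 on its control arrays. On the arrays of the other 3 sets it stayed between 4.18 and 6.72. A second pair of actin controls gave ratios of 4.12 to 5.73 on the salt arrays and 2.93 to 5.38 on the control arrays of the second ir29-labelled set, against 2.31 to 3.46 elsewhere. By both pairs the salt and control ranges of that set overlapped. Each group has 3 arrays, and that number sets the precision of every value below.

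ACO1 read higher on every salt array than on any control array of the same set, in all 4 sets. Salt signals were 1.53 to 2.06 times the control signals. On the log2 scale the change averaged 0.81 ± 0.0651 (SE) over the 4 sets, and 0.923% of the 34355 probe sets tested had a larger average rise. Since the tissue is a mixture, more cells of a type that holds the transcript and more transcript per cell cannot be told apart in these values.

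In m103, ACO1 signals were 12015, 12703 and 10685 on the salt arrays and 6843, 6587 and 6767 on the control arrays. The lowest salt array lay above the highest control array by 0.64 on the log2 scale, the widest such gap of the 4 sets. The means were 11801 ± 1026 with salt and 6732 ± 132 in control (SD, n = 3 each), a ratio of 1.75 and a log2 change of 0.80 ± 0.13. Of all probe sets tested in m103, 14.1% had every salt array above every control array, and 3.77% had a larger rise than ACO1.

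In agami, ACO1 signals were 8926, 10001 and 9404 with salt and 6010, 4917 and 5206 in control. The groups were again apart, with means of 9444 ± 539 with salt and 5378 ± 566 in control, a ratio of 1.76 and a log2 change of 0.81 ± 0.13. Here 10.1% of probe sets tested separated the arrays in this direction, and 1.67% had a larger rise.

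In the first ir29-labelled set, ACO1 signals were 1004, 946 and 809 with salt and 594, 686 and 528 in control. The gap between the groups was the narrowest, 0.23 on the log2 scale. The means were 920 ± 100 with salt and 603 ± 79.3 in control, a ratio of 1.53 and a log2 change of 0.60 ± 0.13. In this set 12.3% of probe sets tested separated in this direction, and 8.91% had a larger rise.

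In the second ir29-labelled set, ACO1 signals were 843, 732 and 940 with salt and 325, 403 and 491 in control. The means were 838 ± 104 with salt and 406 ± 83.1 in control, a ratio of 2.06 and a log2 change of 1.03 ± 0.13. This was the largest ACO1 change of the 4 sets, with 0.929% of probe sets rising more and 11.4% separating in this direction. It was also the set with the highest actin ratios, and the part of RNA quality in this set's change was not tested. In the other 3 sets the ACO1 change was 0.60 to 0.81 on the log2 scale.

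Over the whole array, 231 probe sets (0.672%) had every salt array above every control array in all 4 sets, and ACO1 was among them. At an adjusted p under 0.05 in limma, 34 probe sets (0.099%) were called higher with salt in each of the 4 sets. Calls in either direction covered 8.85% of probe sets in m103 and 0.934% in agami. They covered 5.80% for the first ir29-labelled set and 8.83% for the second. Since ACO1 was chosen on these salt and control values, its place among the 231 is a description, and no call is given for it.

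METK3 signals lay close together in salt and control. Its average log2 change over the sets was 0.21 ± 0.0724, and 16.6% of probe sets tested had a larger average rise. Salt arrays lay above all control arrays in agami, as for 10.1% of probe sets tested there, while the groups overlapped in the other 3 sets. The METK3 values are, like those of ACO1, the ones on which the gene was chosen.

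In m103, METK3 signals were 153, 126 and 145 with salt and 144, 106 and 163 in control. The salt values lay within the range of the control values, with means of 142 ± 14 with salt and 138 ± 28.8 in control and a log2 change of 0.05 ± 0.145. Without the second control array the change was -0.11, so that its sign turned on a single array.

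In agami, METK3 signals were 2273, 2597 and 2442 with salt and 1640, 2044 and 2054 in control. The groups did not overlap, by 0.15 on the log2 scale, and 10.1% of probe sets tested in agami separated in this direction. The means were 2437 ± 162 with salt and 1912 ± 236 in control, a ratio of 1.27 and a log2 change of 0.35 ± 0.145, with 10.8% of probe sets rising more. It was 0.25 when the first control array was left out.

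In the first ir29-labelled set, METK3 signals were 2807, 3822 and 3244 with salt and 2436, 2790 and 2833 in control. The lowest salt array and the highest control array were nearly equal, so the groups just overlapped. The means were 3291 ± 509 with salt and 2686 ± 218 in control, a log2 change of 0.28 ± 0.145. In the second set, METK3 signals were 2740, 2072 and 2479 with salt and 1932, 2358 and 2286 in control, with means of 2430 ± 337 with salt and 2192 ± 228 in control. The log2 change there was 0.14 ± 0.145, and control arrays 2 and 3 lay above the lowest salt array.

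**Figure D1:**
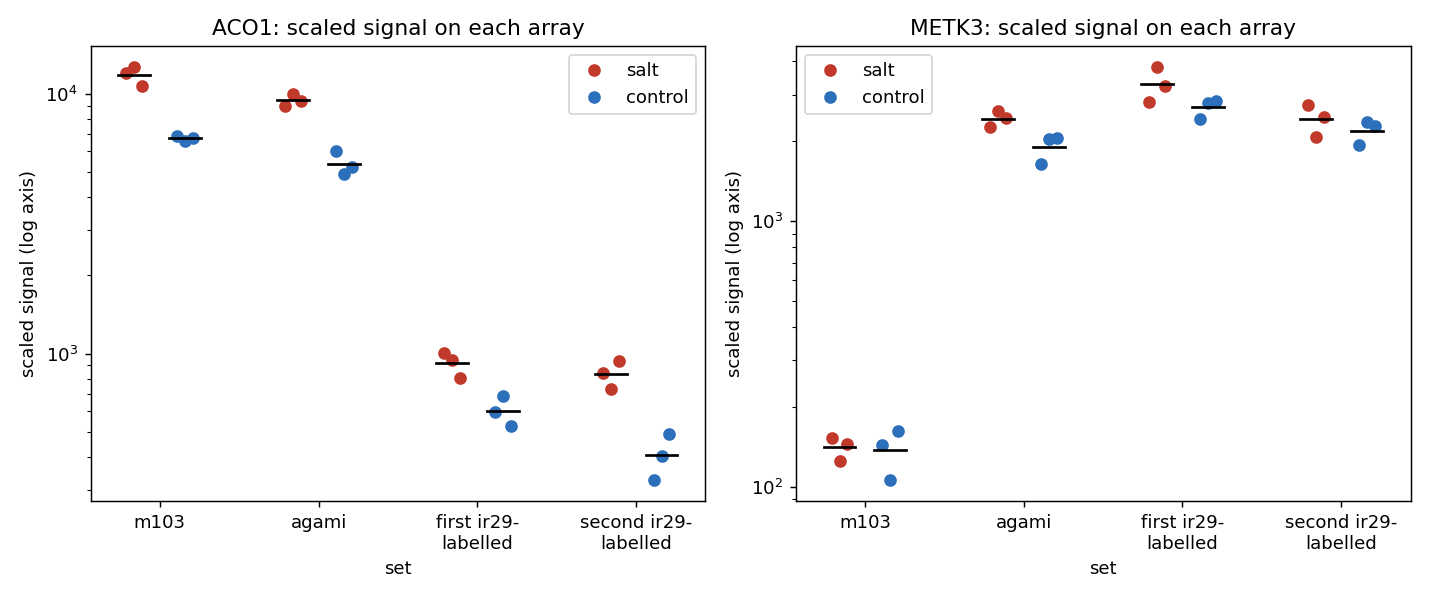
Scaled signal of ACO1 (left) and METK3 (right) on each of the 24 arrays, on log axes, with salt (red) left of control (blue) in each set and black bars at the means of 3 arrays. ACO1 salt points lie above the control points of every set, while METK3 points of both conditions overlap in 3 sets and lie between 106 and 163 in m103.

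The ACO1 change was then compared between sets. The salt change in agami minus that in m103 was 0.01 ± 0.184 on the log2 scale. For the ir29-labelled sets minus the japonica sets it was 0.00 ± 0.13. The second minus the first ir29-labelled set gave the widest difference, 0.43 ± 0.184. For METK3 the same differences were 0.30 ± 0.205, 0.01 ± 0.145 and -0.14 ± 0.205. Of all probe sets, 1.02%, 0.212% and 3.51% were called in these comparisons (agami minus m103, ir29-labelled minus japonica, second minus first). No call is given for the 6 differences of ACO1 and METK3. A small difference does not show that the sets respond alike, since the standard error was up to 0.205.

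The level of both genes differed far more between sets than between salt and control, and in a different way for each gene. ACO1 was high in the japonica sets and low in the ir29-labelled sets. METK3 was low in m103 and high in the other 3 sets. Of the sum of squares of ACO1 log2 signals over 24 arrays, 94.5% lay between the means of the sets, 5.01% between salt and control within sets and 0.536% between replicates. For METK3 the shares were 98.8%, 0.467% and 0.73%.

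ACO1 averaged 879 on the salt arrays of the ir29-labelled sets and 10622 on those of the japonica sets, a log2 difference of -3.57 ± 0.092. On the control arrays the averages were 504 in the ir29-labelled sets and 6055 in the japonica sets, again a log2 difference of -3.57 ± 0.092. These errors come from the spread between replicate arrays and do not cover the spread between the sets of a side. The lowest japonica array, an agami control at 4917, was 4.89 times the highest ir29-labelled array, a salt array of the first set at 1004. Of all probe sets tested, 0.652% had at least as wide a gap in this direction. The direction was read from ACO1's own values, so the share is a description.

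From low to high, the 8 group means of ACO1 stood in this order: second ir29-labelled control, first ir29-labelled control, second ir29-labelled salt, first ir29-labelled salt, agami control, m103 control, agami salt, m103 salt. Among neighbours in this order, only the salt groups of the ir29-labelled sets overlapped in their arrays. Within the japonica sets, the log2 difference of agami minus m103 was -0.32 ± 0.13 with salt and -0.33 ± 0.13 in control. Within the ir29-labelled sets, the second minus the first was -0.13 ± 0.13 with salt and -0.56 ± 0.13 in control.

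METK3 averaged 2720 on the salt arrays of agami and the ir29-labelled sets and 142 on those of m103, a log2 difference of 4.10 ± 0.118. In control the averages were 2263 in those 3 sets and 138 in m103, a log2 difference of 3.89 ± 0.118. Here too the errors cover the spread between replicate arrays and not that between sets. The lowest array outside m103, an agami control at 1640, was 10.1 times the highest m103 array, a control at 163. So wide a gap between m103 below and the other 3 sets above was found in 7 probe sets tested (0.0204%), METK3 among them. This pattern was read from METK3's own values, so the count is a description. Within japonica, agami exceeded m103 on the log2 scale by 3.96 ± 0.145 with salt and by 3.66 ± 0.145 in control.

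The order of METK3 group means was m103 control, m103 salt, agami control, second ir29-labelled control, second ir29-labelled salt, agami salt, first ir29-labelled control, first ir29-labelled salt. Every pair of neighbours in it overlapped in its arrays except m103 salt and agami control. Probe sequences were not used here. A difference in transcript level and a difference between cultivars in the sequence under the probes therefore cannot be told apart for either gene. OSH1 signal also differed between the japonica and ir29-labelled sets, and the part of tissue make-up in these levels was not tested.

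Other genes of the route differed less between sets. SAM1 and SAM2 encode further SAM synthetases, and the similarity of the family leaves cross-hybridisation between its probe sets possible and not tested. The unstressed log2 means of the 4 sets spanned 4.15 for METK3 and 4.02 for ACO1. They spanned 0.43 for SAM1 and 0.91 for SAM2. Over the 21 other genes of the route and its branches that were tested, the span had a median of 0.47 and reached at most 1.23, in NAAT1. The median over all probe sets tested was 0.64, and 1.82% spanned at least as much as METK3 and 1.99% at least as much as ACO1.

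A second SAM2 probe set did part the cultivars. It read 173 to 354 on the ir29-labelled arrays and 3.02 to 45.5 on the japonica arrays, while the SAM2 probe set described above read 6668 to 19134 over all arrays. Different probe sets of a gene thus gave different set patterns, and ACO1 and METK3 had no second probe set to compare.

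**Figure D2:**
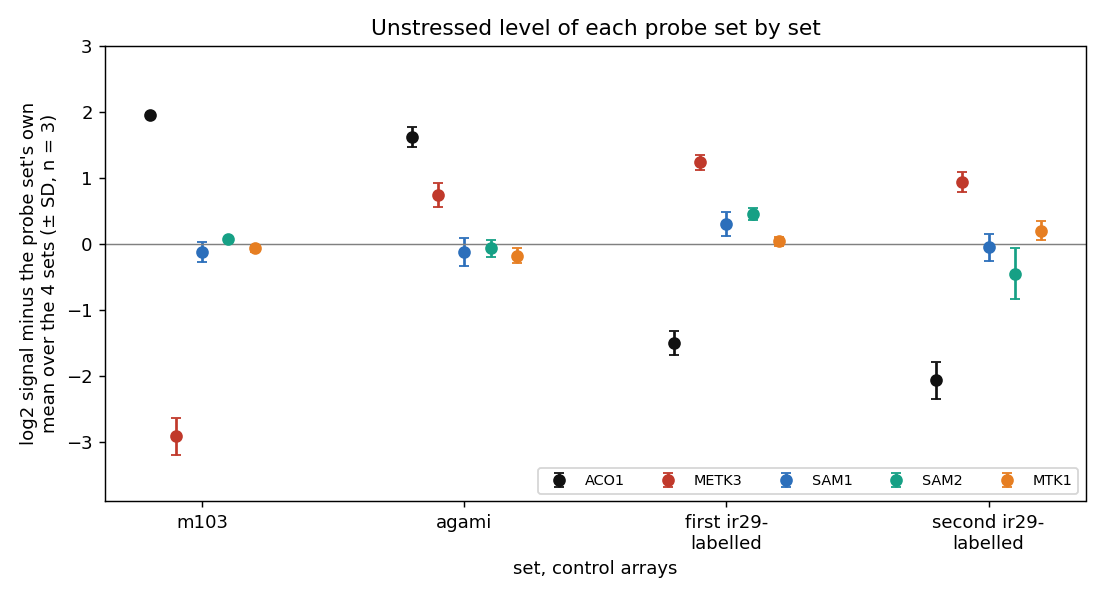
Unstressed log2 signal of ACO1, METK3, SAM1, SAM2 and MTK1 in each set, minus the probe set's own mean over the 4 sets, with bars for the SD of 3 control arrays. ACO1 is high in m103 and agami and low in both ir29-labelled sets, METK3 is low in m103, and the other 3 genes stay close to 0.

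The rest of the route was described with lists of genes, of which 23 had a probe set and 21 were bright enough to be tested. Of these 21 genes, 7 were called higher and none lower in m103, where 4.17% of all probe sets tested were called higher. In the first ir29-labelled set 3 were called higher and none lower, against 3.38% of all probe sets called higher. In the second, 3 were called higher and 1 lower, against 4.41% higher and 4.42% lower over all probe sets. None was called by limma in agami, where 0.934% of all probe sets were called. At an unadjusted p under 0.05 in limma, a looser threshold, 3 of the 21 passed in agami and 10 in m103. In the first ir29-labelled set 9 passed, and in the second 8. The share of all probe sets at that looser threshold is not given here. In the average over sets, where 17.7% of all probe sets were called in either direction, 6 of the 21 were called higher (MTK1, ADC1, ADC2, SAMDC, NAS3 and EIL1A) and 1 lower (EREBP1). The SAMDC average of 0.14 lost its call in 19 of 24 fits with an array left out. The median log2 change of the 21 genes was 0.33 in m103, 0.04 in agami, 0.14 for the first ir29-labelled set and -0.03 for the second. Over all probe sets tested the medians were 0.016, -0.004, 0.008 and -0.026 in the same order of sets.

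Among the genes for METK3's own step, neither SAM1 nor SAM2 passed the test in any set by its brightest probe set. SAM1 averaged 14790 ± 574 with salt and 16541 ± 1698 in control in m103, a log2 change of -0.16 ± 0.122 (SE, limma adjusted p = 0.54). Log2 changes of these probe sets over both genes and the 4 sets ran between -0.21 and 0.07. METK3's changes of 0.05 to 0.35 were higher in each set, a difference between genes that was not tested. The second, dimmer SAM2 probe set did not keep to this. Its log2 changes were 0.62 in m103 and 0.89 in agami, above those of METK3. They were -0.42 for the first ir29-labelled set and -0.1 for the second.

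Of the ACC synthase genes on the list, for the step between METK3 and ACO1, ACS1 and ACS2 had a probe set and ACS5 had none in the annotation. ACS2 read 34.2 to 135 over the 24 arrays and passed in no set, with log2 changes from -0.72 in the second to 0.70 in the first ir29-labelled set. ACS1 read 2.64 to 67.7 and was too dim to be tested. The step as a whole is therefore not covered here.

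MTK1, the methylthioribose kinase of the Yang cycle, was called higher with salt in 3 sets. In m103 its signals were 4032, 4153 and 3801 with salt and 2409, 2506 and 2320 in control. Its log2 change was 0.72 ± 0.106 in m103 (limma adjusted p = 9.3e-05). It was 0.62 ± 0.106 in the first ir29-labelled set (adjusted p = 0.00072 in limma) and 0.39 ± 0.106 in the second (adjusted p = 0.024 in limma). The last call was lost without control array 1, salt array 2 or salt array 3 of that set (adjusted p up to 0.17 in limma), and without the intensity trend (adjusted p = 0.054 in limma). In agami, MTK1 averaged 2880 ± 268 with salt and 2229 ± 179 in control, a log2 change of 0.37 that did not pass. Its salt arrays there (2682 to 3184) all lay above its control arrays (2042 to 2398), as for 10.1% of probe sets tested in agami.

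The unstressed means of MTK1 were 2229 to 2906 over the 4 sets, a span of 0.38 on the log2 scale, against 4.02 for ACO1. The other genes of the cycle tested, ARD4, an acireductone dioxygenase, and IDI2, an isomerase, passed in no set by their brightest probe sets. IDI2 changed by 0.10 to 0.42 and ARD4 by -0.45 to 0.00 on the log2 scale. A second, dimmer IDI2 probe set changed by 0.42 in m103, -0.09 in agami, -0.26 in the first ir29-labelled set and 0.5 in the second. IDI1 and ARD2 were left out, since their gene IDs carry the names of both an acireductone dioxygenase and a heat shock factor.

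Ethylene receptors did not pass in any set. ERS1, a receptor gene, averaged 5290 ± 226 with salt and 5702 ± 523 in control in m103. The log2 changes of ERS1, ERS2, ETR2 and ETR3 lay between -0.17 and 0.38 over the 4 sets, and ETR4 was too dim to be tested.

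Downstream of the receptors, EIN2, the membrane protein that passes the signal to the nucleus, fell in the second ir29-labelled set. Its signals there were 399, 551 and 702 with salt and 1104, 966 and 915 in control. The log2 change was -0.87 ± 0.208 (limma adjusted p = 0.011), and the call was lost without the first control array or the first salt array (adjusted p up to 0.059 in limma). In the first ir29-labelled set EIN2 averaged 1107 ± 195 with salt and 972 ± 198 in control, a log2 change of 0.19 that did not pass. The fall stands in the set with the highest actin ratios, and the part of RNA quality in it was not tested.

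EIL1A (gene ID 107276358) and EIL1B (gene ID 4332697) encode transcription factors that carry the ethylene signal in the nucleus. EIL1A rose in m103 by 0.33 ± 0.101 on the log2 scale (limma adjusted p = 0.045), with 12212 ± 1816 in salt and 9683 ± 569 in control arrays. That call was lost in 5 of the 6 fits that left out an array of m103, with adjusted p up to 0.25 in limma, and with median centring, no filter or no intensity trend. Its average over the 4 sets, 0.25 ± 0.0504 (adjusted p = 0.00091 in limma), kept its call in all 24 such fits. EIL1B was dim, at 1.52 to 152, and passed in no set. EREBP1, a factor of the ERF family, was called lower only in the average over sets, at a log2 change of -0.15 ± 0.0511 (limma adjusted p = 0.044). That call was lost in 15 of 24 fits with an array left out, and in those with no filter or no trend. A second, dimmer EREBP1 probe set changed by 0.04 in m103, -0.78 in agami, 0.1 in the first ir29-labelled set and 0.72 in the second.

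In the polyamine branch, which draws on SAM, all 3 genes measured were called higher in m103. ADC2, an arginine decarboxylase that starts putrescine synthesis, had signals of 705, 532 and 557 with salt and 349, 226 and 251 in control in m103. Its log2 change was 1.09 ± 0.252 in m103, 1.23 ± 0.252 for the first ir29-labelled set and 1.05 ± 0.252 for the second (limma adjusted p = 0.007, 0.0037 and 0.011). Without the first control array of the second set the last of these did not pass (adjusted p = 0.074 in limma). In agami ADC2 averaged 318 ± 53.5 with salt and 301 ± 134 in control, a log2 change of 0.14, and ACO1 changed there by 0.81.

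ADC1, another arginine decarboxylase, rose by 0.58 ± 0.141 in m103 (adjusted p = 0.011 in limma) and by 0.51 ± 0.141 in the second ir29-labelled set (adjusted p = 0.026 in limma). The m103 call was lost without the second m103 control array (adjusted p = 0.058 in limma), and the other without the second control or the second salt array of its set (adjusted p up to 0.16 in limma). Both were also lost with arrays centred on their medians, and the second without the intensity trend. SAMDC, the SAM decarboxylase that commits SAM to polyamines, averaged 24190 ± 548 with salt and 18759 ± 1964 in control in m103. Its log2 change was 0.37 ± 0.096 (adjusted p = 0.015 in limma), a call lost without control array 1, salt array 1 or salt array 2 of m103 (adjusted p up to 0.11 in limma). Second probe sets of these genes did not always follow. That of ADC1 gave log2 changes of 0.41 in m103, -0.24 in agami, 0.57 for the first ir29-labelled set and 0.13 for the second, where the call above was made at 0.51. That of SAMDC gave 0.60, -0.17, -0.41 and -0.01 in the same order of sets, and that of EIL1A gave 0.17, -0.15, 0.36 and -0.07.

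In the nicotianamine branch, which joins SAM molecules into an iron chelator, NAS3 had signals of 4168, 5136 and 3385 with salt and 2398, 2692 and 1894 in control in m103. Its log2 change was 0.85 ± 0.172 there (limma adjusted p = 0.0023) and 0.96 ± 0.172 in the first ir29-labelled set (limma adjusted p = 0.0011). In agami and the second ir29-labelled set the changes of 0.46 and 0.32 did not pass. NAS2 rose in m103, with 189, 272 and 579 in salt and 79.5, 56.1 and 31.5 in control arrays, a log2 change of 2.25 ± 0.475 (limma adjusted p = 0.0033). NAS1 and NAAT1, an aminotransferase that acts after nicotianamine, passed in no set.

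**Figure D3:**
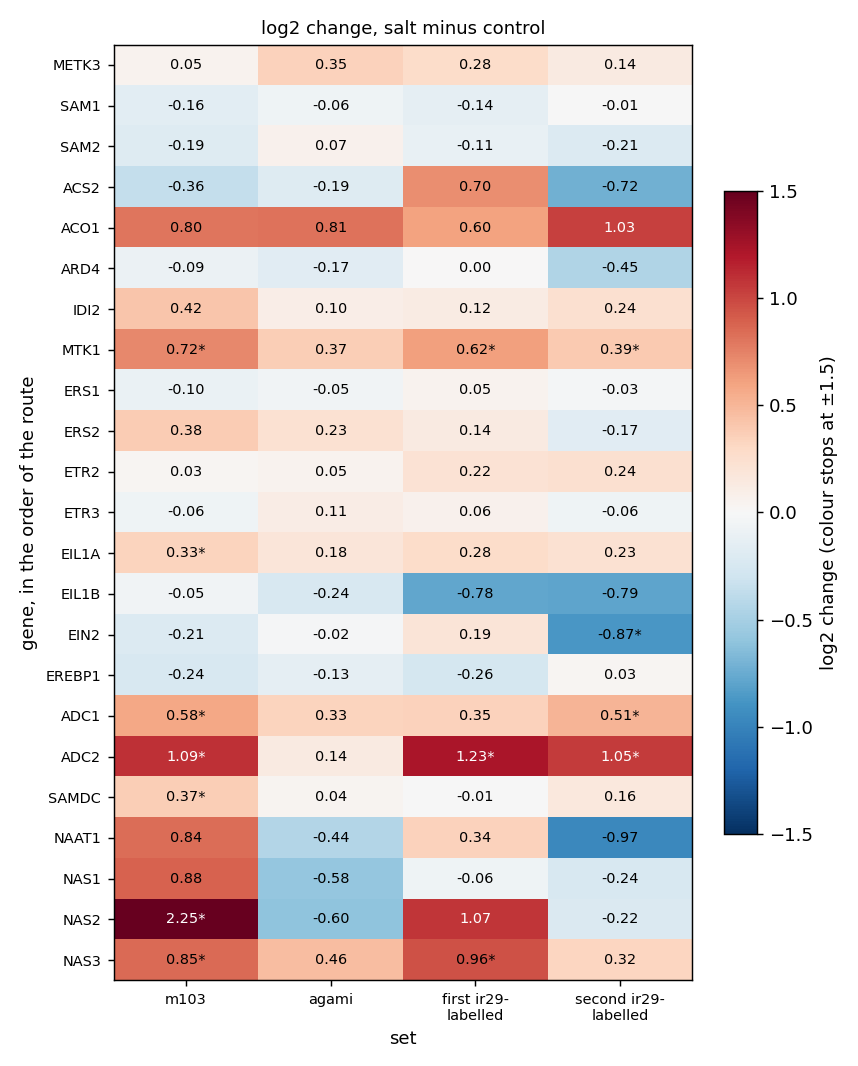
Log2 change, salt minus control, of ACO1, METK3 and the 21 other genes of the route tested (rows, in the order of the route) in each set (columns), with red for higher and blue for lower with salt. An asterisk marks an adjusted p under 0.05 and is not drawn for ACO1 and METK3. The ACO1 row runs from 0.60 to 1.03 over the 4 sets, values on which the gene was chosen.

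Set side by side, the log2 salt change of ACO1 was 0.60 to 1.03 over the sets, with its smallest value in the first ir29-labelled set. MTK1 changed by 0.37 to 0.72 and ADC2 by 0.14 to 1.23, both least in agami. NAS3 changed by 0.32 to 0.96, least in the second ir29-labelled set. Differences between genes were not tested.

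**Figure D4:**
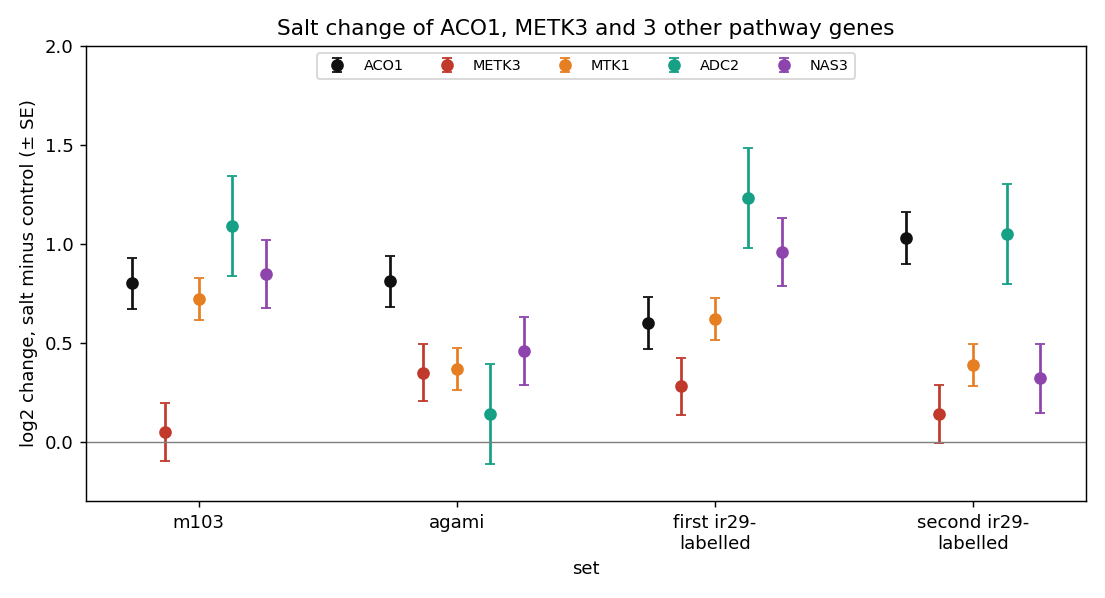
Log2 change with salt (± SE from the model) of ACO1, METK3, MTK1, ADC2 and NAS3 in each set. ACO1 lies between 0.60 and 1.03 throughout, METK3 between 0.05 and 0.35, and ADC2 drops to 0.14 in agami.

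Array by array, after each set's own mean was taken off, ACO1 and METK3 correlated with a Pearson's r of 0.517 over 24 arrays. These arrays share the salt and control contrast, so a gene that changes with salt in every set scores high. Of 2842 tested probe sets with an informative gene name, Cyt-RPEase, a pentose phosphate epimerase, had the highest r with ACO1, 0.899. FEN1B (0.886), BP-73 (0.885), Lsi2 (0.885) and OsSWEET15 (0.883) came next. OsSWEET15, a sugar transporter, had log2 salt changes of 1.69 in m103, 1.94 in agami, 0.88 for the first ir29-labelled set and 2.35 for the second. The lowest r with ACO1 were those of CYCP2-1, a cyclin (-0.876), KIN8B, a kinesin (-0.871), and ALN, the allantoinase (-0.856). The median over all tested probe sets was -0.016.

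For METK3 the highest r were lower, with Lsi2, a silicon efflux transporter, at 0.67, Cyt-RPEase at 0.649 and PORA, DAHPS2 and ILL5 at 0.646 each. PORA, a chlorophyll synthesis enzyme, changed by 0.43 in m103, 0.77 in agami, 0.23 for the first ir29-labelled set and 0.70 for the second. The lowest were SLP16 at -0.689, IMP at -0.67 and ACBP6 at -0.646. IMP had log2 salt changes of -0.08 in m103 and -0.78 to -1.18 in the other sets. Lsi2 and Cyt-RPEase stood among the 5 highest of both genes. Lsi2 is also on the list of root markers and PORA on that of leaf markers, so markers of other tissues are among the genes whose signals moved most like METK3 and, for Lsi2, ACO1.

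Some tissue markers moved with salt in the same direction as ACO1. In the average over sets, where 17.7% of all probe sets were called in either direction, the root marker Lsi2 rose by 0.52 ± 0.0923 on the log2 scale (limma adjusted p = 0.00029). The leaf marker PORA rose by 0.53 ± 0.0813 (limma adjusted p = 5.8e-05) and the growing point marker OSH1 by 0.55 ± 0.103 (limma adjusted p = 0.00054). Lsi2 changed by 0.45 in m103, 0.60 in agami, 0.58 for the first ir29-labelled set and 0.46 for the second, and OSH1 by 0.60, 0.26, 0.65 and 0.69 in the same order of sets. These changes were positive in each set, as was that of ACO1. The lists as wholes had median changes in that average of -0.19 for 8 root markers, 0.06 for 6 leaf markers and 0.00 for 12 growing point markers tested. In it, 1 root marker was called higher and 2 lower, 1 leaf marker higher and none lower, and 2 growing point markers higher and 1 lower.

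Within sets, the root list had a median log2 change of -0.64 in m103, -0.12 in agami, 0.10 for the first ir29-labelled set and -0.12 for the second. Of its 8 markers tested, 2 were called lower and none higher in m103, where 8.85% of all probe sets were called in either direction. In each ir29-labelled set 1 was called lower and none higher, against 5.80% called in the first and 8.83% in the second. The summed signal of all 9 root markers was 1804 to 2820 with salt and 4925 to 6530 in control in m103, and 4510 to 5996 with salt and 2755 to 3567 in control in the first ir29-labelled set. Much of that sum is TIP4-1, which averaged 3831 ± 884 with salt and 1899 ± 451 in control in the first ir29-labelled set (not called, limma adjusted p = 0.052). In agami and the second ir29-labelled set the sums overlapped.

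The sum of 14 growing point markers was 15555 to 17832 with salt and 16255 to 17458 in control in m103, and 15184 to 17491 with salt and 15540 to 17214 in control in agami. It was 12947 to 15161 with salt and 12417 to 12986 in control in the first ir29-labelled set, and 15161 to 18381 with salt and 11596 to 15411 in control in the second. Leaf marker sums overlapped between salt and control in every set, between 37843 and 63420 over all arrays. The 10 seed genes summed to at most 1088, and the glutelins GLUA1 and GLUA3 did not pass the filter on low signal. The part of tissue make-up in the ACO1 and METK3 values was not tested.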

How the data were processed

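Total RNA was extracted with Trizol and hybridised as biotinylated cRNA to Affymetrix rice arrays, per the labels' protocols. The deposited values are linear intensities of 57381 probe sets. GCOS 1.2 made them, per the submitters' processing notes, by an algorithm not given in the sources used here. Each array was multiplied so that its mean, after leaving out 2% of probe sets at each end, was 500. Deposited values gave 500.07 to 500.08 in 15 arrays and 58.79 to 115.71 in 9. Values were taken as log2(scaled signal + 16), which shrinks the fold changes of dim probe sets. After removal of 123 controls, 34355 of the remaining 57258 probe sets were tested, those above the 40th percentile of mean log2 value (a scaled signal of about 27.9).

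The 24 arrays were fitted together in limma 3.58.1 (R 4.3.3), with 8 group means and an intensity trend. Tests were two-sided, with Benjamini-Hochberg adjustment across the 34355 probe sets and a threshold of 0.05 for a call. The fit was tested on simulated data. The old platform annotation assigned 22436 probe sets to 1 gene, 95 to several and 34850 to none. Names came from RefSeq's table for assembly ASM3414082v1, where all 22436 were found. Coordinates and probe sequences are not given here.

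The genes and lists were chosen with earlier results of these data known. Both genes are given in full. Of the other pathway genes, those called in at least 1 contrast or brightest at their step are named, from the brightest probe set of each gene. The 5 highest and 3 lowest named probe sets by r are named for each gene. List symbols that the table gives to genes of another function, or to gene IDs that carry names of differing functions, were left out. Alternatives were other scalings, pseudocounts, no filter, no trend, a replicate block, fits on single sets and leaving out each array. Figures were drawn with matplotlib 3.10.9.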

Additional observations from a re-analysis of the deposited data

Results flagged for a closer look

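The salt change of NAS2, a nicotianamine synthase, differed between the japonica sets by the model's interaction term. Its signals in agami were 8.5, 13.8 and 49.4 with salt and 55.8, 18.5 and 50.6 in control, and in m103 they were 189, 272 and 579 with salt and 79.5, 56.1 and 31.5 in control. The difference in log2 change, agami minus m103, was -2.85 ± 0.672 (limma adjusted p = 0.039). It was lost in 8 of the 12 fits that left out an array of these sets, with a pseudocount of 1, without the filter and without the trend, with adjusted p up to 0.13 in limma.

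The salt change of EIN2 differed between the ir29-labelled sets. Its signals were 399, 551 and 702 with salt and 1104, 966 and 915 in control in the second set, and 1251, 885 and 1185 with salt and 1157, 996 and 763 in control in the first. The difference, second minus first, was -1.05 ± 0.294 (limma adjusted p = 0.047), and 9 of 12 fits with an array left out lost the call, with adjusted p up to 0.12 in limma. It was also lost with median centring, quantile normalization, a pseudocount of 1, no filter and no trend. The differences of ACO1 and METK3 in these comparisons are given above as a description, without a call.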

How the results depend on the processing

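The log2 salt changes of ACO1 and METK3 moved by less than the spread between replicates under every alternative run. Leaving out 1 array gave ACO1 0.75 to 0.87 in m103, 0.75 to 0.90 in agami, 0.51 to 0.69 in the first and 0.88 to 1.17 in the second ir29-labelled set, and METK3 -0.11 to 0.17, 0.25 to 0.41, 0.17 to 0.39 and 0.05 to 0.25 in the same order of sets. On the arrays deposited unscaled alone, an alternative chosen after seeing the data, ACO1 changed by 0.79 in m103 and 0.67 in the first set. Counts of called probe sets moved more. In agami (321 called), centring on medians gave 188, no filter 200, no intensity trend 119, the replicate block 541 and a fit on agami alone 213. In the first ir29-labelled set (1993), the unscaled arrays alone gave 988, and in the second (3034) a fit on that set alone gave 179. For agami minus m103 (349), centring on medians gave 227, no trend 131 and the replicate block 579. For second minus first (1205), no filter gave 802, no trend 625 and a fit on these sets alone 575. For ir29-labelled minus japonica (73), no trend gave 36 and the replicate block 185. Leaving out 1 array gave 1756 to 2579 in m103 (3039), 77 to 370 in agami, 1337 to 1542 in the first and 928 to 3750 in the second set, 5448 to 6355 for the average (6097), 135 to 755 for agami minus m103, 539 to 1836 for second minus first and 44 to 146 for ir29-labelled minus japonica. The causes were not tested. Same-numbered salt and control arrays deviated together with r from -0.05 to 0.204 over 12 pairs, so the numbers were not taken as pairs. The planned comparison with other probe sets of the same gene could not be run, since each gene has 1. Dim probe sets such as ACS2 are limited by background.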
